A study of Mus musculus with 8 samples.

Results

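The genes described here are 10 markers of the macrophages that enter an injured liver or fill with lipid there: Chi3l3, Lyz1, Lyz2, Itgam, Itgax, Cx3cr1, Cd14, Cd68, Trem2 and Gpnmb. They were found by the gene name of each array probe, and a probe was kept where it was well above background (the scanner software's mark for a signal clearly over the local background) on at least 4 of the 8 arrays. Of 15 probes that carry these names, out of 55681 non-control probes, 12 were kept, and all 10 genes kept at least 1. Each gene is given by its brightest kept probe, as 1 of 18534 features tested, and by its other probes where they differ.

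The samples were frozen livers of male mice. Fibrosis had been induced over 5 weeks with CCl4 (carbon tetrachloride, a liver toxin) or with TAA (an abbreviation the labels leave unexplained, by usage the hepatotoxin thioacetamide), and the mice were then watched for 1 or 2 weeks, with either miR-29a or a negative control nucleotide (NC) injected every 3 days. These 3 factors gave 8 combinations with 1 sample and 1 array for each, so there are no replicates within a combination, and none of the samples is a liver without a fibrosis-inducing agent. The labels give neither the strain, the age, the form of the miR-29a molecule nor its carrier, nor whether livers were pooled, so p-values measure the spread between these samples alone. All arrays shared 1 slide, with the CCl4 arrays in 1 row and the TAA arrays in the other, so that agent and slide row cannot be told apart.

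After injury the liver draws monocytes from the blood through chemokines such as CCL2. They become macrophages that can drive scarring and later clear it, beside the resident Kupffer cells, which are also macrophages and share several of these markers. Macrophages that take up lipid and cell debris switch on TREM2 and GPNMB and are known from fibrotic and fatty livers. MiR-29a is a microRNA known for binding messenger RNAs of collagens and other matrix genes. Its guide strand, miR-29a-3p, is shown for its seed, the bases 2 to 8 that pair with targets, in capitals (RefSeq, GRCm38.p6). The labels do not say which strand or sequence was injected, and seed matches in the marker transcripts were not searched.

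miR-29a-3p: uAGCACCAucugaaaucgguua

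A level below is the log2 processed signal of a probe minus the 75th percentile of its array, so 0 is that percentile, and levels are compared between arrays for 1 probe and never between probes. In a bulk sample fewer cells of a type and less RNA per cell cannot be told apart. The share of non-control spots well above background ran from 43.9% to 48.4%. The 12 hepatocyte markers had list medians of 8.14 to 8.70 on the 8 arrays, as the liver label says. The TAA 1-week NC array stood apart: 8 of the 10 markers had their highest level on it, against 13.1% of all features. Counts of markers and of listed genes with differences above or below 0 that rest on it are given without it too. Which listed genes pass a test at 1 week can also turn on it. Those counts are not given without it, since 1 TAA 1-week array would remain. Markers of other cells were also highest there. Of the 14 neutrophil markers 7 were measured, with a median level of 3.27 on that array and between −0.75 and 0.38 on the other 7; the granule genes Mpo, Ltf, Ngp and Mmp8 were not kept on these arrays. A list's summed level (the sum of its signals as multiples of the 75th percentile) can be set largely by its brightest gene and is compared between arrays only. That gene made up 28.5% to 95.1% of the neutrophil sum and 12.8% to 39.8% of the Kupffer cell sum. For the neutrophil list it ran from 91.8 to 145 on the CCl4 arrays and from 108 to 453 on the TAA arrays, and without its brightest gene Csf3r from 8.54 to 12.3 and from 8.07 to 324. Over 17 of 18 Kupffer cell markers it ran from 153 to 199 and from 181 to 459, and without Nr1h3 from 92.2 to 143 and from 115 to 401. Over 35 of 38 other monocyte and macrophage markers it ran from 348 to 395 and from 339 to 552; 55% to 82.4% of that was F10, a coagulation factor that hepatocytes also make, and without F10 it ran from 62.3 to 82.6 and from 82.9 to 249. The highest value of each TAA range is the TAA 1-week NC array. Their part in the results below was not tested.

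Among the soluble products, Chi3l3 (also Chil3 or Ym1) encodes a secreted chitinase-like protein made by macrophages under interleukin 4. Its probe (mm9, chr3:105950485-105950544, minus strand) had levels of −3.01 and −3.30 (NC and miR-29a) at 1 week and −3.41 and −4.32 at 2 weeks after CCl4, the last not well above background. After TAA the levels were 1.94 and −0.23 at 1 week and −1.02 and −2.75 at 2 weeks. All 4 TAA arrays were thus above all 4 CCl4 arrays, and the miR-29a array was the lower of each pair.

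Lyz1 and Lyz2 are neighbouring genes of lysozyme, the enzyme that cleaves bacterial cell walls. Lyz2 is the form of macrophages and neutrophils, and Lyz1 is best known from Paneth cells of the gut. The probes are shown because the genes are near-identical copies. They lie at mm9 chr10:116724862-116724921 (Lyz1) and chr10:116719175-116719234 (Lyz2), both on the minus strand, and the longest run of bases that the 2 sequences share is 6 of 60. Whether either probe also binds the other transcript was not tested.

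Lyz1: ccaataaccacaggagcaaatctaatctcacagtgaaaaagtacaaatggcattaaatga
Lyz2: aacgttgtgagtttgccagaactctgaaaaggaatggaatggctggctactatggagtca

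Lyz1 stood at 3.51 and 2.90 (NC and miR-29a) at 1 week and 2.23 and 1.95 at 2 weeks after CCl4, and at 4.21 and 1.76, then 2.70 and 2.34, after TAA. Lyz2 stood at 0.75 and 0.45, then −0.66 and −1.30, after CCl4, and at 0.77 and −1.89, then 0.35 and −0.59, after TAA. For both genes the TAA 1-week NC array was highest, and the lowest was its miR-29a partner. Neither gene separated the agents.

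Of the integrin chains, Itgax encodes CD11c, a marker of dendritic cells and of some lipid-laden macrophages. Its levels were −1.55 and −1.38 at 1 week and −1.93 and −1.54 at 2 weeks after CCl4, against −0.24 and −1.19, then −0.91 and −0.54, after TAA (NC and miR-29a in each). The TAA arrays were all above the CCl4 arrays. Itgam encodes CD11b, which pairs with the beta 2 chain on monocytes and neutrophils, and its 3 probes disagreed, as described further on.

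Cx3cr1 is the receptor for fractalkine on patrolling monocytes and on macrophages derived from monocytes. Its levels were −0.36 and −1.31, then −1.67 and −1.75, after CCl4 and 0.23 and −0.68, then −0.66 and −0.08, after TAA. The CCl4 1-week NC array lay within the range of the TAA arrays, so the agents overlapped. A second kept probe overlaps the first (mm9 chr9:119957806-119957865 against chr9:119957811-119957870), so it is no independent measure, and another was well above background on 0 arrays.

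Cd14, the receptor chain that hands lipopolysaccharide to TLR4, was set apart by 1 array. It stood at 4.06 on the TAA 1-week NC array and between −1.93 and −0.44 on the other 7. Cd68, a lysosomal membrane protein of macrophages, stood at 0.88 and 1.11, then 0.65 and 0.27, after CCl4 and at 2.70 and 1.13, then 1.16 and 1.27, after TAA. Its TAA arrays were all above its CCl4 arrays, although 1.13 and 1.11 nearly met. Another Cd68 probe was well above background on 2 arrays and was not kept.

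Of the pair of lipid-associated markers, Trem2, a receptor for lipids and debris that signals through DAP12, varied least, with a standard deviation of 0.39 over the 8 arrays. It stood at 1.09 and 0.47, then 0.00 and 0.22, after CCl4 and at 1.15 and 0.51, then 0.71 and 0.53, after TAA. Gpnmb, a membrane glycoprotein of lipid-laden macrophages that is regulated with lysosomes, went its own way. Its probe (mm9 chr6:49006386-49006445, plus strand) is printed because it fell to background on the TAA 1-week arrays.

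Gpnmb: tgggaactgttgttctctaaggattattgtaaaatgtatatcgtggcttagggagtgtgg

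Gpnmb stood at −0.42 and −0.21 at 1 week and −1.64 and −1.62 at 2 weeks after CCl4. After TAA it stood at −2.98 and −3.95 at 1 week, neither well above background, and at −1.08 and −1.81 at 2 weeks. It is the 1 marker whose highest level was on a CCl4 array and the order of its weeks was opposite in the 2 agents.

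**Figure D1:**
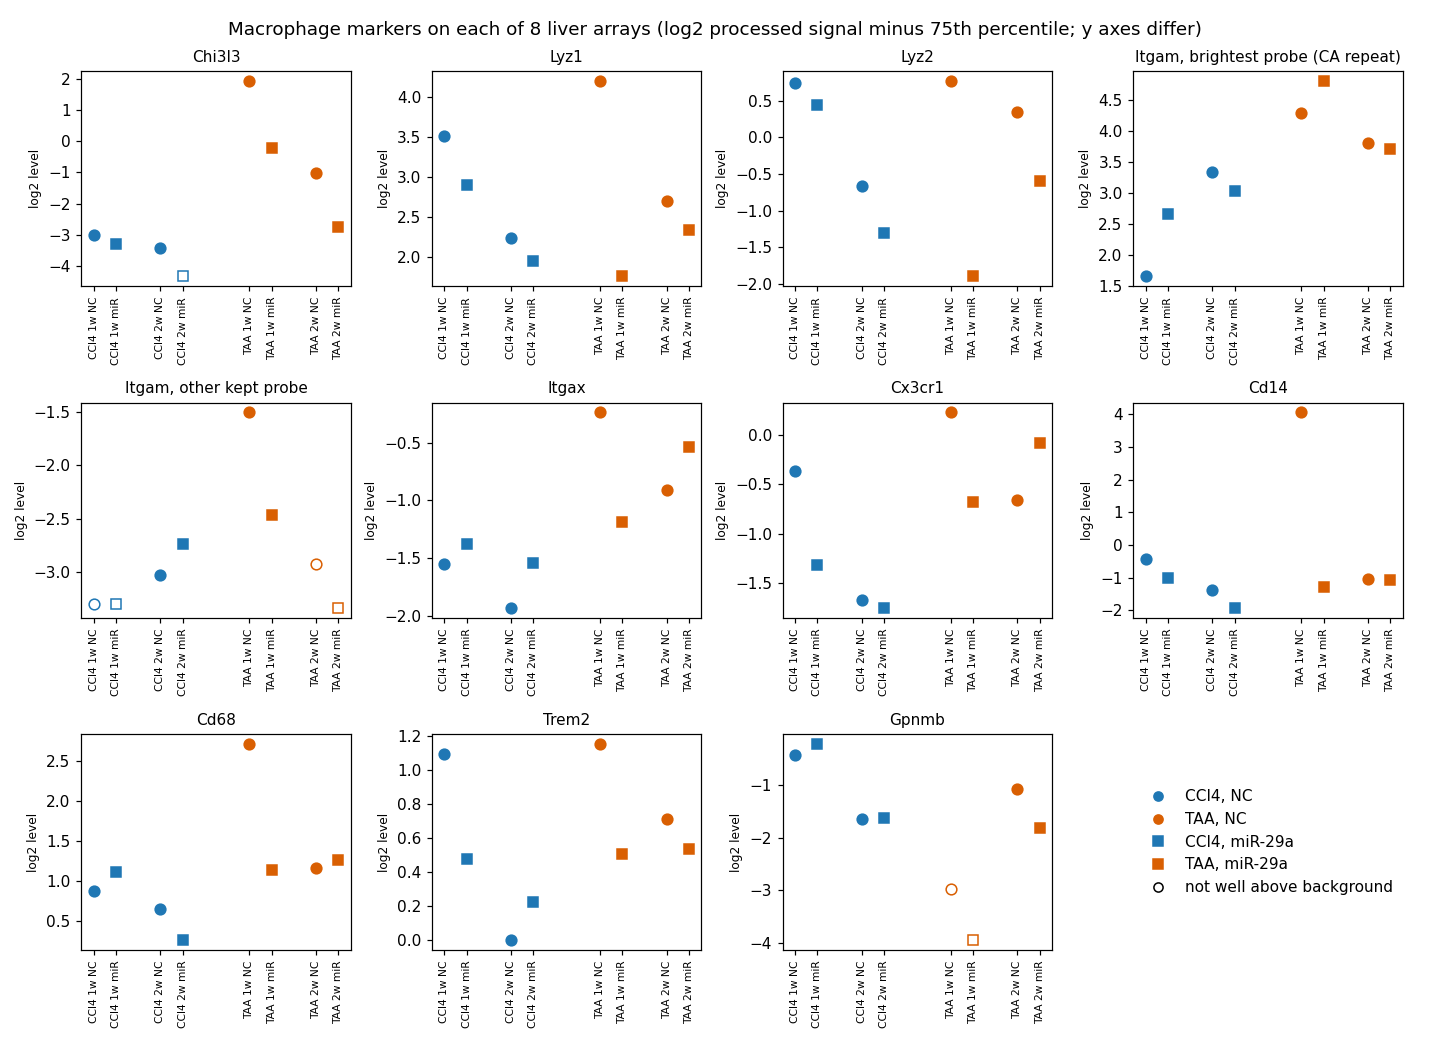
Level of each marker on each of the 8 arrays (log2, relative to the 75th percentile of that array; circles NC, squares miR-29a, blue CCl4, orange TAA, open where the probe was not well above background), with both kept Itgam probes. Cd14 stands at 4.06 on the TAA 1-week NC array and below 0 on the other 7, and Gpnmb is at background on both TAA 1-week arrays.

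The brightest Itgam probe did not follow the other 2 probes of the gene. It had levels of 1.65 and 2.65, then 3.35 and 3.03, after CCl4 and of 4.29 and 4.81, then 3.81 and 3.71, after TAA (NC and miR-29a at 1 and 2 weeks). The other kept probe stood at −3.29 and −3.30, then −3.03 and −2.74, after CCl4 and at −1.51 and −2.47, then −2.92 and −3.33, after TAA, and was well above background on 4 arrays, the CCl4 2-week and TAA 1-week ones. The remaining probe was well above background on 0 arrays. The brightest probe begins with a run of 20 bases of alternating C and A, shown in capitals. So do the probes of the 3 features whose levels, centred on their means over the 8 arrays, were nearest to it by root mean square difference: Zfp663, a zinc finger gene (0.040), Btnl10, a butyrophilin-like gene (0.043), and Oprm1, the mu opioid receptor (0.053), with runs of 33, 31 and 27 bases at other places in the probe.

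Itgam, brightest probe (mm9, chr7:135261755-135261814, plus strand): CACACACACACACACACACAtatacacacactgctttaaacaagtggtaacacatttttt
Itgam, other kept probe (mm9, chr7:135260275-135260334, plus strand): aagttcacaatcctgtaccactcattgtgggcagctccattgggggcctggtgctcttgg
Zfp663: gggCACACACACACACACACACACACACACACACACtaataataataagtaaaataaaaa
Btnl10: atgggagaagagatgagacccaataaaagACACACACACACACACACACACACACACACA
Oprm1: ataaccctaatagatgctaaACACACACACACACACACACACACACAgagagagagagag

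Of the 18533 other features, 31 (0.167%) had a probe with at least 8 CA or AC units in a row. Within a root mean square difference of 0.1 from the brightest Itgam probe lay 18 features, and all 18 had such a repeat; the nearest feature without one was at 0.120. The other 13 repeat features lay farther from it than 0.1. Of 208 listed genes that were measured, Itgam alone had a probe with this repeat. In the difference between the agents at 1 week, 30 of the 31 repeat features were called higher after TAA and 1 lower, with a median of 2.43, against 2.40 for the brightest Itgam probe. What the repeat probes bound was not tested. Counts of markers are therefore given with the brightest probe, as the rule has it, and with the other kept probe, an alternative chosen after seeing the data.

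**Figure D2:**
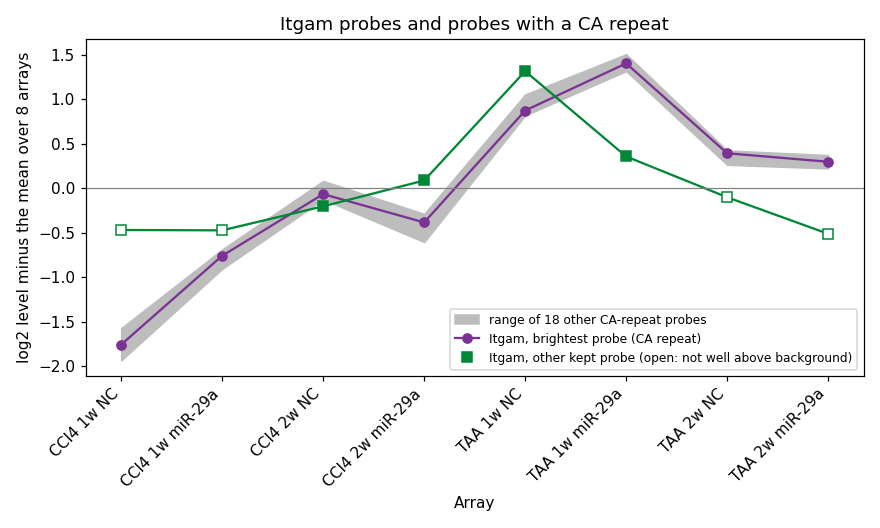
Levels of both kept Itgam probes centred on their means over the 8 arrays (log2), with, in grey, the range of the 18 other probes with a CA repeat that were chosen for lying within 0.1 root mean square of it. The brightest probe is highest on the TAA 1-week miR-29a array, while the other kept probe is highest on the TAA 1-week NC array.

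The markers were first compared between miR-29a and NC in livers already made fibrotic. None of the 10 passed the test: limma's additive fit called 0 of 18534 features (0%) at an adjusted p of 0.05, with 524 features and 1 marker at an unadjusted p under 0.05. Of the markers 9 were below 0, with a median of −0.39 against 0.03 over all features, of which 42.9% were below 0; with the other Itgam probe 10 were below 0, with the same median. The median over the markers was −0.30 in each of the CCl4 pairs, −1.27 in the TAA 1-week pair and −0.14 in the TAA 2-week pair. Leaving out the TAA 1-week pair brought the median of the markers to −0.18.

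Chi3l3, Lyz1, Lyz2 and Cd14 were lower with miR-29a in all 4 pairs, as were 5.69% of all features. Chi3l3 differed by −0.30 and −0.92 in the CCl4 pairs (1 and 2 weeks) and by −2.17 and −1.73 in the TAA pairs, with a mean of −1.28 ± 0.50 (SE of the fit, n = 4 pairs); the CCl4 2-week miR-29a array behind the second value was not well above background. Lyz1 differed by −0.61 and −0.28, then −2.45 and −0.37, with a mean of −0.93 ± 0.39. Lyz2 differed by −0.30 and −0.64, then −2.67 and −0.94, with a mean of −1.14 ± 0.55. For both lysozymes the TAA 1-week pair held the widest gap.

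Cd14 showed this most. Its differences were −0.56 and −0.56 after CCl4, −5.33 in the TAA 1-week pair and −0.03 in the TAA 2-week pair, so its mean of −1.62 ± 0.90 was −0.39 without the TAA 1-week pair. Cd68 went from −0.40 ± 0.30 to −0.02 in the same way, and its pairs had both signs. In the TAA 1-week pair 5 markers were over 2-fold lower with miR-29a, against 5.87% of all features, and 0 were over 2-fold higher. Each pair sets 1 array against 1 array, so that count has no replicate check.

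The remaining markers had small means, below 0 except for Itgam by its brightest probe. Itgax was at −0.00 ± 0.25, Cx3cr1 at −0.34 ± 0.31, Trem2 at −0.31 ± 0.20 and Gpnmb at −0.37 ± 0.69. Itgam was at 0.28 ± 0.43 by its brightest probe and at −0.27 ± 0.37 by the other. Whether the miR-29a difference depended on agent or on week was tested with 1 added term each, and limma called 0% of features for oligonucleotide by agent and 0% for oligonucleotide by week, with 258 and 356 features, and 0 and 1 markers, at an unadjusted p under 0.05. The 1 marker was Cx3cr1, with differences of −0.95 and −0.91 at 1 week (CCl4 and TAA) and −0.08 and 0.58 at 2 weeks.

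**Figure D3:**
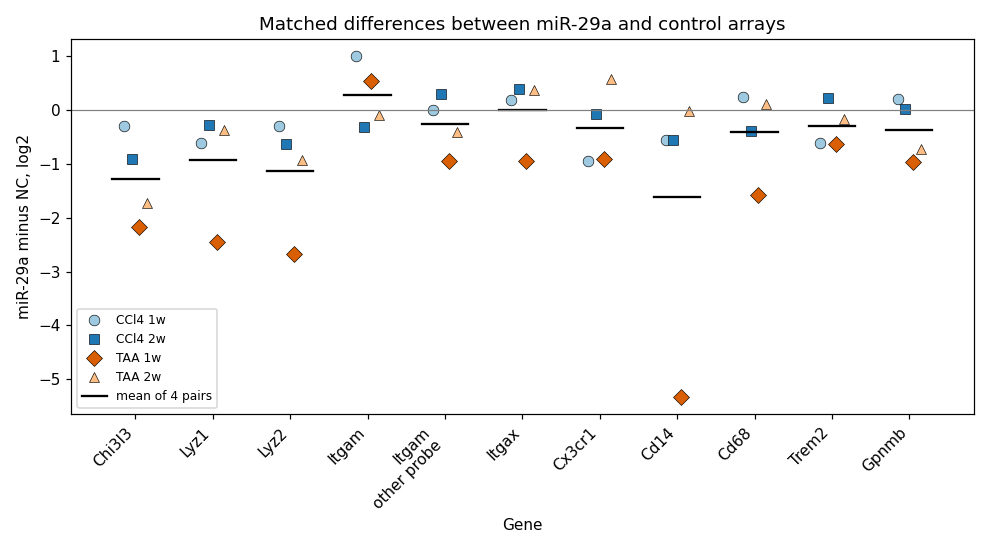
Difference between the miR-29a and NC arrays of each of the 4 matched pairs (log2) for every marker, with the mean as a line. The TAA 1-week pair is the lowest of the 4 for 8 of the 10 markers, by their brightest probes, with Cd14 at −5.33.

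The agents were compared next, at matched week and oligonucleotide. Over both weeks 8 of 10 markers were higher after TAA than after CCl4, with a median of 0.86, while the median of all features was −0.13. Limma's additive fit called 0% of features (5322 at an unadjusted p under 0.05, among them 5 markers; smallest adjusted p 0.0629). Chi3l3 differed by 2.99 ± 0.50, a 7.96-fold higher signal after TAA (adjusted p = 0.130), with 4 of 4 pairs above 0. Only 3 of the 4 CCl4 arrays measured it well above background. With the remaining array set to the lowest signal any probe had well above background on it, the difference was 6.94-fold, which is no strict bound. With normexp background correction the difference was 1.42. The other means ran from −1.48 ± 0.69 for Gpnmb to 1.48 ± 0.43 for Itgam by its brightest probe. In all 4 pairs 6 markers were above 0, as were 10.9% of features, and for Chi3l3, Itgam, Itgax and Cd68 every TAA array was above every CCl4 array, as for 5.45% of features. By the other kept probe Itgam was at 0.53 ± 0.37, and its agents overlapped. The median of all features shifts with the scaling of the arrays: with each array's median in place of its 75th percentile it was −0.52, and 6 in place of 8 markers were then above 0, with Lyz1 at −0.29 and Trem2 at −0.11.

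An agent by week term was then added to the fit, and it was called for 1 of the 10 markers. Of all features 9.81% were called, 1023 of them higher (5.52%), so the share of markers called was close to the background. The marker was Gpnmb, at 3.34 ± 0.45 (limma adjusted p = 0.0270), or 1.36 with normexp background correction. Gpnmb was not well above background on either TAA 1-week array, so the size of its term rests in part on background signals. Its call was kept in 8 of 15 alternatives, with adjusted p between 0.0137 and 0.151, and it was lost with no filter on dim probes and without each of the CCl4 or TAA 2-week arrays and each of the CCl4 1-week arrays. Chi3l3 was at −2.03 ± 0.65 (adjusted p = 0.107), and the brightest Itgam probe at −1.83 ± 0.48 (adjusted p = 0.0705).

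At 1 week 3 of 10 markers passed the test, 2 higher and 1 lower after TAA. Over all features 35.7% were called, 12.6% higher and 23% lower, so the share of markers called was close to the background. Chi3l3 was higher by 4.01 ± 0.46 (adjusted p = 0.00498), with pair differences of 4.95 under NC and 3.07 under miR-29a. Gpnmb was lower by 3.15 ± 0.32 (a difference of −3.15, adjusted p = 0.00455). It was not well above background on either TAA 1-week array, where its measured values had a mean of −3.46. The mean of the CCl4 arrays (−0.32) was set against the lowest signal any probe had well above background on each TAA array. On that footing its signal was 8.30-fold higher after CCl4. This is no strict bound, since a probe not well above background can lie over that lowest signal. Both genes were called in all 15 alternatives that could test them, but normexp correction, which adds an offset of 50 to the signals, brought Chi3l3 to 2.27 and Gpnmb to −1.28.

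Itgam was the third, higher by 2.40 ± 0.34 by its brightest probe (adjusted p = 0.00689). By the other kept probe it was higher by 1.31 ± 0.31 (limma adjusted p = 0.0267), a 2.47-fold higher measured signal after TAA (means of −1.99 against −3.29). That probe was not well above background on either CCl4 1-week array, so the size of its difference rests in part on background signals. The count of 3 was the same with either probe, but the 2 calls do not back each other. The brightest probe followed other repeat probes, and the other kept probe passed the filter only with the TAA 1-week arrays counted. Cd14 (2.11 ± 1.32), Cd68 (0.92 ± 0.45), Itgax (0.75 ± 0.36) and Cx3cr1 (0.61 ± 0.40) had positive differences that did not pass. Cd14 rested on 1 array: it was at −0.36 without the TAA 1-week NC array. Lyz2 was at −1.15 ± 0.57, Lyz1 at −0.22 ± 0.55 and Trem2 at 0.04 ± 0.25, and the sign of Lyz1 turned under quantile normalization and that of Trem2 under scaling by the median or normexp correction.

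These counts turn on the TAA 1-week arrays. Without the NC array 5 markers passed at 1 week, against 30.5% of all features, and without its miR-29a partner 7 passed, against 40.2%, each time with the remaining TAA 1-week array taken to vary like the others. Lyz1 was called lower without the NC array (−1.23, adjusted p = 0.0159) and higher without the miR-29a array (0.79, adjusted p = 0.0275). The median of the markers was 0.68 with all arrays, −0.03 without the NC array and 1.19 without the miR-29a array. Scaling by the array median made 9.49% of the calls higher, against 35.4% with the 75th percentile as scale.

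At 2 weeks all 10 markers were above 0, with a median of 0.68 against −0.08 over all features, but limma called 0% of features and 0 markers (2093 features and 3 markers at an unadjusted p under 0.05). Chi3l3 was at 1.98 ± 0.46, Cx3cr1 at 1.34 ± 0.40 and Itgax at 1.01 ± 0.36. Gpnmb was at 0.19 ± 0.32. Itgam was at 0.57 ± 0.34 by the brightest probe and at −0.25 ± 0.31 by the other.

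**Figure D4:**
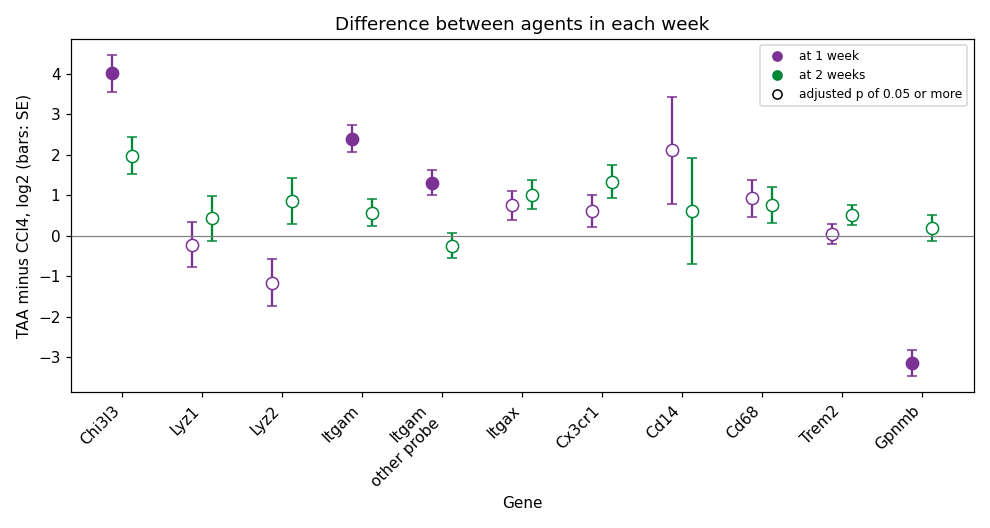
Difference between TAA and CCl4 arrays (log2, bars SE of the fit with an agent by week term) for each marker at 1 week and at 2 weeks, filled where limma's adjusted p was under 0.05. Chi3l3 (4.01) and both Itgam probes are called higher and Gpnmb (−3.15) lower at 1 week, and none is called at 2 weeks.

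Between 1 and 2 weeks 8 of 10 markers had a lower mean at 2 weeks, with a median of −0.54 against 0.03 over all features, and limma called 0% of features (961 features and 1 marker at an unadjusted p under 0.05). That marker was Chi3l3, at −1.72 ± 0.50 and below 0 in all 4 pairs, as 6.08% of features were. Within CCl4 9 markers were lower at 2 weeks, with a median of −0.79; 1.08% of features were called and 0 markers. Gpnmb was at −1.32 ± 0.32, Lyz2 at −1.58 ± 0.57, Lyz1 at −1.11 ± 0.55 and Trem2 at −0.67 ± 0.25 there. Within TAA 0% of features were called, with Chi3l3 at −2.74 ± 0.46 and Gpnmb at 2.02 ± 0.32 (adjusted p = 0.0633 for both). Gpnmb was at background in both TAA 1-week arrays. With these set to the lowest signal any probe had well above background on them, its signal at 2 weeks was 3.80-fold higher. Without the TAA 1-week pair 2 markers passed, against 2.72% of all features, Lyz1 at −1.11 (adjusted p = 0.0425) and Lyz2 at −1.58 (adjusted p = 0.0432), both from CCl4 alone.

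Promoters are shown for Chi3l3, Lyz1 and Lyz2, which with Cd14 were lower with miR-29a in all pairs. Promoters of 9 markers were taken from the RefSeq table (GRCm38.p6), each 250 bases before to 50 after the start of the gene. Cd14 was not among the 9, so its promoter was not searched. The core letters AGGAAGT of the motif of PU.1, a factor of myeloid cells, searched on both strands, occurred in 3 of the 9, these 3 genes, and in 9.35% of 32851 promoters. In each it lies on the strand opposite to the one shown. It begins 60 bases before the start in Chi3l3 and 100 bases before it in both lysozymes, whose promoters share 201 of 300 positions (67%). The letters TGANTCA of AP-1, a factor of stress and growth signals, occurred in 4 of the 9, Cd68, Gpnmb, Itgax and Trem2, and in 7.81% of all. The searches were chosen with the members' values known. Capitals mark the PU.1 core, read as ACTTCCT on the strand shown.

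Chi3l3 (chr3:106167515-106167814, minus strand): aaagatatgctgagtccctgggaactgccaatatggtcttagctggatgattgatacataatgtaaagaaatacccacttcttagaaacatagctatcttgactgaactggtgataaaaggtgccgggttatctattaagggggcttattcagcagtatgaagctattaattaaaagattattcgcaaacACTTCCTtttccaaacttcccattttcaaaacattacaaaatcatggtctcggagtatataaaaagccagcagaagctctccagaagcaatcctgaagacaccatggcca
Lyz1 (chr10:117292819-117293118, minus strand): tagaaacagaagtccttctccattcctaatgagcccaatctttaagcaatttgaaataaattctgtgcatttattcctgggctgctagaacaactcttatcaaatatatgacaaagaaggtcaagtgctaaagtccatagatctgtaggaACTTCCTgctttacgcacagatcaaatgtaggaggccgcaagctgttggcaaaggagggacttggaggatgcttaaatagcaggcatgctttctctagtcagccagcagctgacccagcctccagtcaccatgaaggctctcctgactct
Lyz2 (chr10:117282223-117282522, minus strand): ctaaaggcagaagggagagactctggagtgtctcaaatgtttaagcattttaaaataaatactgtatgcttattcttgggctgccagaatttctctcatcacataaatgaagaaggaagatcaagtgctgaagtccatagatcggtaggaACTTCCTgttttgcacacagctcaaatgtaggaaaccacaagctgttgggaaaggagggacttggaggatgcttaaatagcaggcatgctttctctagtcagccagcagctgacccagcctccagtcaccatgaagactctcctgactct

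The partners of these proteins were looked at in lists without the 10 markers. For recruitment, 13 of 17 genes were measured. All 13 were below 0 with miR-29a (median −0.49) and all 13 above 0 for TAA against CCl4 at 1 week (median 0.57), with 0 called in either, while 42.9% of all features were below 0 in the first and 41.1% above 0 in the second. Both counts turn on the TAA 1-week NC array: without it 10 were below 0 with miR-29a (median −0.13) and 4 above 0 after TAA at 1 week (median −0.16). Ccl2, the chemokine that draws monocytes, was at −1.43 for miR-29a, Ccr2, its receptor, at −0.49 and Cx3cl1, the ligand of CX3CR1, at −0.16. Ccr2 was at 1.75 ± 0.53 for the agents at 1 week (adjusted p = 0.0524), with −0.24 and −1.84 on the TAA arrays (NC and miR-29a) and −2.28 and −3.29 on the CCl4 arrays.

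Of 35 other markers of infiltrating monocytes and macrophages 32 were below 0 with miR-29a (median −0.52, 0 called), and 29 were above 0 after TAA at 1 week, where 1 was called (2.86%, against 35.7% of all features). Without the TAA 1-week NC array 25 were below 0 with miR-29a (median −0.12), against 51.2% of all features. After TAA at 1 week 16 were then above 0 (median −0.07), against 43.5% of all features. The gene called with all arrays was Ly6c1, a surface protein of the Ly6 family, at 1.56 ± 0.42 (limma adjusted p = 0.0386). Its relative Ly6c2 was, with F13a1 and Treml4, among the listed genes that were not measured. Of 8 measured genes of TREM2 and DAP12 signalling all 8 were above 0 after TAA at 1 week (median 0.82) and 2 were called higher (25%, against 12.6% of all features called higher and 35.7% called): Btk, a tyrosine kinase, at 1.22 ± 0.33 (adjusted p = 0.0390) and Hcst, the adaptor DAP10, at 0.95 ± 0.28 (adjusted p = 0.0493). Without the TAA 1-week NC array 5 of the 8 were above 0 (median 0.30), against 43.5% of all features. Tyrobp, which encodes DAP12 itself, was at 0.47 ± 0.65, with pair differences of 1.78 under NC and −0.84 under miR-29a. It stood at 4.08 on the TAA 1-week NC array and at 1.55 on its miR-29a partner.

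The lipid-laden list was split. Of 34 measured genes 11 were above 0 after TAA at 1 week, and 7 without the TAA 1-week NC array (medians of −0.28 and −0.45). With all arrays 12 were called, 3 higher and 9 lower after TAA, which is 35.3% of the list against 35.7% of all features. Among those lower were Npc2, a lysosomal carrier of cholesterol, at −1.28 ± 0.26, Plin2, a coat protein of lipid droplets that hepatocytes also express, at −1.24 ± 0.26, and Cd9, a tetraspanin, at −0.83 ± 0.16. Cd63, a lysosomal tetraspanin, was higher by 1.16 ± 0.24. Spp1, osteopontin, was at 0.68 ± 0.48, Lgals3, galectin 3, at 0.33 ± 0.47 and Fabp5, a fatty acid carrier, at −0.00 ± 0.54. Like Cd14, Lgals3 was highest on the TAA 1-week NC array (3.73), with 1.70 to 2.50 on the other 7. Of 9 measured genes of alternative activation 0 were called higher and 2 lower after TAA (22.2%, close to the 23% of all features called lower). They were Il4ra, the receptor chain for interleukin 4, at −2.31 ± 0.16 (limma adjusted p = 0.00399), and Arg1, arginase, which hepatocytes also express, at −0.79 ± 0.13 (limma adjusted p = 0.0103). Above 0 were 5 of the 9, and 4 without the TAA 1-week NC array. Il4ra and Arg1 differed in the direction opposite to Chi3l3.

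Around Cd14, 12 of 14 genes of the lipopolysaccharide receptor complex were measured, with 0 called higher and 2 lower at 1 week (16.7%, against 23% of all features called lower). These were the adaptor Ticam1 (−0.96 ± 0.17) and the kinase Irak1 (−0.59 ± 0.14). Above 0 were 6 of the 12, and 3 without the TAA 1-week NC array (medians of −0.03 and −0.59). Tlr2, a receptor for bacterial lipoproteins, stood at 2.79 on the TAA 1-week NC array and between −1.79 and −0.65 elsewhere. Tlr4, the signalling receptor, was well above background on 5 arrays, Ly96, its partner MD-2, was at 0.05 ± 0.12 for the agents at 1 week, and Lbp, the serum carrier of lipopolysaccharide, stood at 4.67 on the TAA 1-week NC array against 2.17 on its miR-29a partner. Of 10 measured partners and ligands of the integrins 0 were called, against 35.7% of all features. Above 0 were 4 of the 10, and 2 without the TAA 1-week NC array (medians of −0.06 and −0.34). Itgb2, the beta 2 chain that pairs with both members, was at 0.64 ± 0.68, with 0.61 on the TAA 1-week NC array and levels below 0 on the other 7, down to −1.85. The lysozyme relatives Lalba and Lyzl6 were the 2 of 7 measured, and neither was called.

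Other cell types did not all move with the markers. Of 9 dendritic cell markers all 9 were above 0 after TAA at 1 week, as were 41.1% of all features. The 3 called, all higher, are 33.3% of the list, against 12.6% of all features called higher and 35.7% called. They were Flt3, Clec9a (2.06 ± 0.27, limma adjusted p = 0.00607) and Siglech (1.30 ± 0.17). Of 17 Kupffer cell markers 15 were above 0 there with 0 called. Of 7 neutrophil markers 6 were above 0 with 1 called higher (14.3%, against 12.6% of all features), the receptor Csf3r (0.82 ± 0.16). The neutrophil list's summed level was 453 on the TAA 1-week NC array and 165 on its miR-29a partner. Without Csf3r it was 324 and 8.07, so Csf3r, unlike the sum of the others, was not lower on the partner. Of 9 activated stellate cell genes 6 were below 0, against 58.9% of all features, with 0 called. Without the TAA 1-week NC array 8 dendritic cell markers, 4 Kupffer cell markers and 1 neutrophil marker were above 0. These were 88.9%, 23.5% and 14.3% of their lists, against 43.5% of all features.

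**Figure D5:**
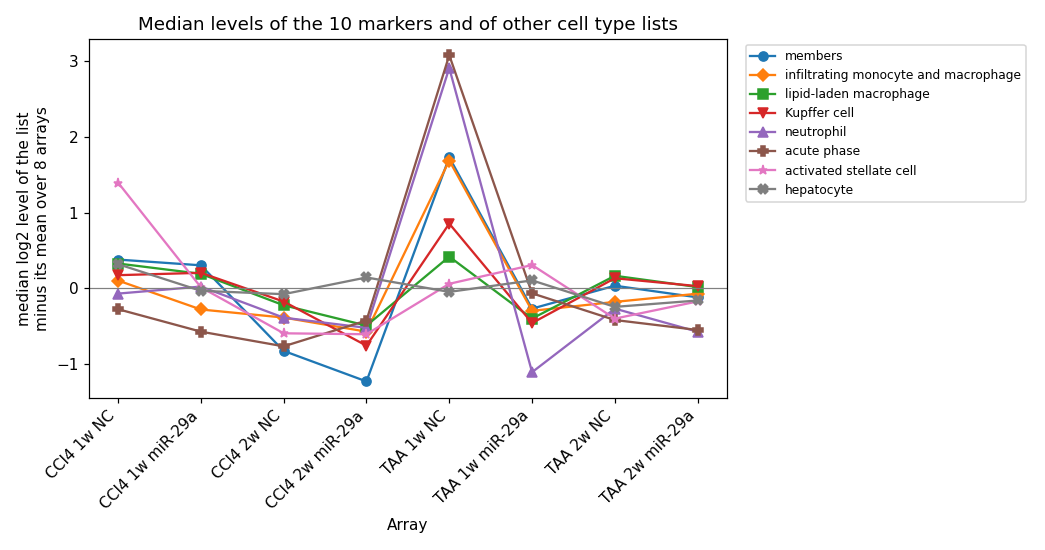
Median level of the 10 markers and of 7 other marker lists on each array, each centred on its mean over the 8 arrays (log2). The acute-phase, neutrophil, infiltrating macrophage, Kupffer cell, lipid-laden and marker medians are highest on the TAA 1-week NC array, and the stellate cell median is highest on the CCl4 1-week NC array.

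By root mean square difference of centred levels over the 8 arrays, among 13496 named features, the features nearest to Cd14 were S100a9, a subunit of calprotectin (0.37), Noxa1 (0.41) and Ifitm6 (0.44). Nearest to Itgax were H2-Ab1 (0.17) and H2-Eb1 (0.20), chains of MHC class II, with Mlkl (0.19). Nearest to Cd68 were Btbd11 (0.094), Plcg2 (0.11) and Rgs2 (0.12). Lyz1 was nearest to Ly6e, Epdr1 and Evi2a (0.21 to 0.22), Lyz2 to Pak1, Rad51b and Crym (0.28 to 0.37), Cx3cr1 to Oasl2, Evpl and Gdpd5 (0.19 to 0.21) and Trem2 to Cd34, Agtrap and Parm1 (0.14 to 0.16). Chi3l3 was nearest to Ly6d, Scd2 and Cish (0.59 to 0.82) and Gpnmb to Bag2 (0.20), Apom (0.35) and Chid1 (0.37). Between the markers themselves, Itgax and Cd68 were nearest (0.37) and Chi3l3 and Gpnmb farthest (2.85).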

How the data were processed

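The authors read each scan with Agilent Feature Extraction 10.10.1.1, per the file headers. The deposited intensity columns taken from its output were the background-subtracted processed signal and, in 1 alternative, mean spot and local background intensity. The deposited flags (other values, 0 or 1) mark spots well above background and outliers, per the file headers. The authors' other deposited file holds log2 values, and how they were made is not given in the sources used here. Its columns were the log2 signal shifted by 1 constant per array (within 0.01 for 100% of probes), with column medians of −4.03, −4.06, −3.86 and −3.80 (CCl4 1-week NC and miR-29a, then 2-week) and −3.44, −3.46, −3.72 and −3.56 (TAA, same order), so its scale, centring and direction follow from the values.

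Control and outlier-marked spots were left out, spots of a probe averaged, and each array's 75th percentile (a processed signal of 136 to 219) subtracted on the log2 scale. A probe was kept where 4 or more of 8 arrays measured it well above background, and the brightest stood for its gene. Probe coordinates are those of the files (mm9); where a probe lies in its gene was not analysed here. Limma 3.58.1 in R 4.3.3 (with the data.table package, 1.17.8) fitted agent, week and oligonucleotide over the 8 arrays (4 residual degrees of freedom; 3 with an added term), with moderated statistics and Benjamini-Hochberg adjustment over all 18534 features at 0.05. The fits were tested on simulated data. Each fold change given against the lowest signal well above background compares mean log2 values. Each dim array was set to the higher of its own value and the lowest value of any probe well above background on it. Such a fold is no strict bound: on the CCl4 1-week NC array that lowest value was −3.56, and the other Itgam probe was not well above background there at −3.29. The number of arrays limits the precision.

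The members and lists were chosen with earlier results of these data known. Named were all members with every probe, the 3 features nearest each member, the 3 genes with the largest difference in each list of a comparison described (in part), and a fixed set of partner genes; genes behind a count of at most 3 calls were named after their values were seen. Alternatives were other scalings, normexp with offset 50, the authors' matrix, other filters, the mean of kept probes, a block, an added term, leaving out arrays or pairs, and, chosen after seeing the data, the other Itgam probe, the list counts and sums without 1 array or gene, and all alternatives of the 1-week agent difference.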

Additional observations from a re-analysis of the deposited data

Results flagged for a closer look

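Among the 4 matched differences of a marker, a value far from the other 3 (its gap to the nearest, as a ratio to the range, above Dixon's 95% limit, which chance passes for about 1 in 20 groups) was found for Cd14 (−5.33, ratio 0.898), Lyz1 (−2.45, ratio 0.849) and Itgax (−0.95, ratio 0.839), all for miR-29a against NC in the TAA 1-week pair, and for Lyz1 between the agents on the 1-week miR-29a arrays (−1.14, ratio 0.830). All 4 share the TAA 1-week miR-29a array, and the first 3 also the TAA 1-week NC array.

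Gpnmb differed between the weeks in its agent difference and, by the same term, between the agents in its week difference (3.34, adjusted p = 0.0270). Its miR-29a differences were above 0 in both CCl4 pairs and below 0 in both TAA pairs (term −0.96, adjusted p = 1.00, which does not pass), but it was not well above background on either TAA 1-week array, so the sign of that pair and the size of both terms rest in part on background signals. The brightest Itgam probe, which holds the CA repeat, was higher at 2 weeks than at 1 in both CCl4 pairs and was lower at 2 weeks in both TAA pairs (term −1.83, adjusted p = 0.0705), and its miR-29a differences were above 0 at 1 week and below 0 at 2 weeks (term −0.97, adjusted p = 1.00); neither passed limma's test.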

How the results depend on the processing

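With miR-29a 0 markers and 0 features were called under any alternative run, and the median of the markers stayed below 0 (−0.74 to −0.15 without single arrays, −0.59 to −0.18 otherwise). Itgam turned to −0.27 with its other probe and Itgax to 0.32 without the TAA 1-week pair; without single arrays Itgam ran −0.13 to 0.66, Itgax −0.13 to 0.27 and Gpnmb −0.93 to 0.20.

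For TAA against CCl4 over both weeks the array median as scale called 5489 features and 1 marker, Chi3l3, and an added agent by week term 5012 and 3 (Chi3l3, Itgam and Gpnmb). Quantile normalization called 11 features, normexp 6 and the filter on all 8 arrays 6. The array median turned Lyz1 to −0.29 and Trem2 to −0.11. Without either 1-week pair Lyz2 was at 0.86 and Gpnmb at 0.19. Without single arrays the median of the markers ran 0.39 to 1.13, Lyz1 −0.19 to 0.57 and Lyz2 −0.52 to 0.49.

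For 2 weeks against 1 the fit without the TAA 1-week pair called 505 features and 2 markers, and put Gpnmb at −1.32 (−0.13 with normexp). Without the CCl4 1-week pair Lyz2 was at 0.44 and Itgam at −0.79; Itgam was at −0.12 as the mean of its kept probes and at −0.36 with the other probe. Without single arrays Itgam ran −0.29 to 0.44, Itgax −0.41 to 0.064 and Gpnmb −0.21 to 0.91.

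For agent by week normexp called 2 markers (18.4% of features), the mean of kept probes 2 (9.88%), no filter 0 (0%) and the filter on all 8 arrays 0 (13.6%; Gpnmb was then not tested). Leaving out single arrays called 0 to 3 markers: 3 and 2 without the TAA 1-week NC or miR-29a array (12.8% and 12.4% of features) and 0 without any other (0%). Itgax was at −0.029 with normexp and Cd68 at 0.24 with the array median. Without single arrays Lyz1 ran −0.36 to 1.66, Itgax −0.38 to 0.89, Cd14 −3.98 to 0.97 and Cd68 −0.95 to 0.61.

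For the agents at 1 week the filter on all 8 arrays left 1 marker called, since Chi3l3 and Gpnmb were not tested; the array median called 11794 features and no filter 3884. Lyz1 was at 0.067 with quantile normalization, and Trem2 at −0.55 with the array median and −0.024 with normexp. Leaving out single arrays called 3 to 7 markers and 1764 to 7444 features, with the median of the markers from −0.030 to 1.19, Lyz1 −1.23 to 0.79, Cd14 −0.36 to 4.58 and Trem2 −0.18 to 0.27.

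The causes of these changes were not tested. With the matched combination as a block, 0 markers were called in each of the 3 comparisons. A slide or scan block was not run, since all arrays share 1 slide and 1 scan. Low signals limit Chi3l3, Gpnmb and the other Itgam probe, which were not well above background on 1, 2 and 4 arrays.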

Other observations

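Of 9 measured T, NK and B cell markers 4 were above 0 after TAA at 1 week (median −0.23). Both calls were higher (2 of 9, 22.2%, against 12.6% of all features called higher and 35.7% called). They were Cd3g (1.00 ± 0.21) and Cd3e (0.50 ± 0.12), chains of the T cell receptor complex. Without the TAA 1-week NC array 5 were above 0 (median 0.08). Of 12 hepatocyte markers 6 were above 0 and 6 below there, and 2 were called lower (16.7%, against 23% of all features): Cps1, of the urea cycle (−1.22 ± 0.15), and Cyp2e1, a cytochrome P450 (−0.64 ± 0.19). The acute-phase gene Lcn2 stood at 10.05 on the TAA 1-week NC array and between 0.65 and 1.44 on the other 7, the same array on which Cd14 was high.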
